A study of Rattus norvegicus with 4 samples.

Results

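The large proteoglycan genes Acan, Vcan, Ncan, Bcan, Cspg4, Hspg2, Agrn, Sdc1, Sdc4 and Gpc1 were followed in an m6A-seq experiment on cardiac fibroblasts (CFs). The 10 genes were chosen by hand as core proteins of aggregating, transmembrane, basement membrane and cell surface proteoglycans, and all 10 were matched to an NCBI rat gene. The numbers of peaks in Acan and Cspg4 were already known when the genes were chosen, so their values are a description. Peaks were listed for 5 of the 10, out of 8729 genes with a peak in all. In m6A-seq, an antibody against m6A enriches modified RNA fragments (m6A-IP), and peaks are called where their reads outnumber those of the RNA set aside before the pull-down (input). The cells were primary CFs of neonatal Sprague-Dawley rats, at most 3 days old, collected 48 h after transfection. The FTO group is labelled with the genotype FTO overexpression and received a plasmid with the rat cDNA of FTO, the demethylase that removes m6A. The control group, called Vector here, is labelled WT, and the labels do not name its plasmid. The paper gives an empty plasmid for its Vector group. Each group had 1 m6A-IP and 1 input library, with 1 deposited peak list for the pair. How many animals gave the cells and which cells took up the plasmid are not given in the labels.

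Proteoglycans are core proteins that carry long, negatively charged sugar chains, the glycosaminoglycans. The lecticans aggrecan (Acan), versican (Vcan), neurocan (Ncan) and brevican (Bcan) bind hyaluronan at their N-terminal end and carry chondroitin sulfate in the middle. Perlecan (Hspg2) and agrin (Agrn) carry heparan sulfate in basement membranes, while syndecans (Sdc1, Sdc4) and the glypican Gpc1 hold it at the cell surface as co-receptors for growth factors. NG2 (Cspg4) spans the membrane of pericytes and progenitor cells. In the heart, versican is a main proteoglycan of the developing valves and of the provisional matrix that fibroblasts lay down after injury.

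The Vector list held 21249 peaks and the FTO list 17796, and the depth behind them is unknown. Fto itself, the transfected gene, had 3 Vector peaks and 9 FTO peaks. With 1 library pair per group, no difference has a replicate check and no p-value was computed. A change in methylation and a change in the amount of a transcript cannot be told apart in a number of peaks. Of 12 fibroblast markers, 6 had a Vector peak and 6 an FTO peak, with 15 and 12 peaks in all. Pdgfra had 7 and 6, Fn1 3 and 1, Thy1 2 and 1, Lum 1 and 2, Tcf21 1 and 1, Postn 1 and 0 and Ddr2 0 and 1, while Col1a1, Col1a2, Col3a1, Dcn and Vim had none in either. Peaks were also listed for markers of other heart cells. Of 8 cardiomyocyte markers, 6 had a Vector peak and 5 an FTO peak, with 23 and 25 peaks in all. Of 5 macrophage markers, 3 had a peak in each list, with 14 and 9 peaks, most of them of Ptprc with 10 and 7. Of 5 endothelial markers, 0 had a Vector peak and 1, Tek, had an FTO peak, with 0 and 2 peaks. A listed peak needs the transcript to be present and gives no level.

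Together the 10 genes had 25 Vector peaks and 15 FTO peaks. Fewer FTO peaks were listed for 2 of the 5 genes with peaks, Acan and Vcan, against 41.4% of all genes with a peak. In both of them the FTO number was at most the Vector number divided by 2, against 29.3% of all genes. More FTO peaks were listed for 2, Cspg4 and Gpc1, against 21.2% of all genes, and Sdc1 had as many in both, against 37.4%. Ncan, Bcan, Hspg2, Agrn and Sdc4 had no peak under their gene ID in either list. The median difference over the 5 genes was 0 peaks, as it was over all genes. Acan made the difference of the total peak numbers, since the other 9 genes had 14 Vector peaks and 15 FTO peaks. When peaks were paired 1 to 1 by the same gene and the same length, 11 were common to both lists. The remaining 14 Vector peaks were 56.0% of the Vector peaks of these genes, against 42.7% of all Vector peaks. Without Acan the share was 21.4%, with 3 of 14. Peaks of 1 gene are not independent, and Acan was chosen with its numbers known, so no interval is given.

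**Figure D1:**
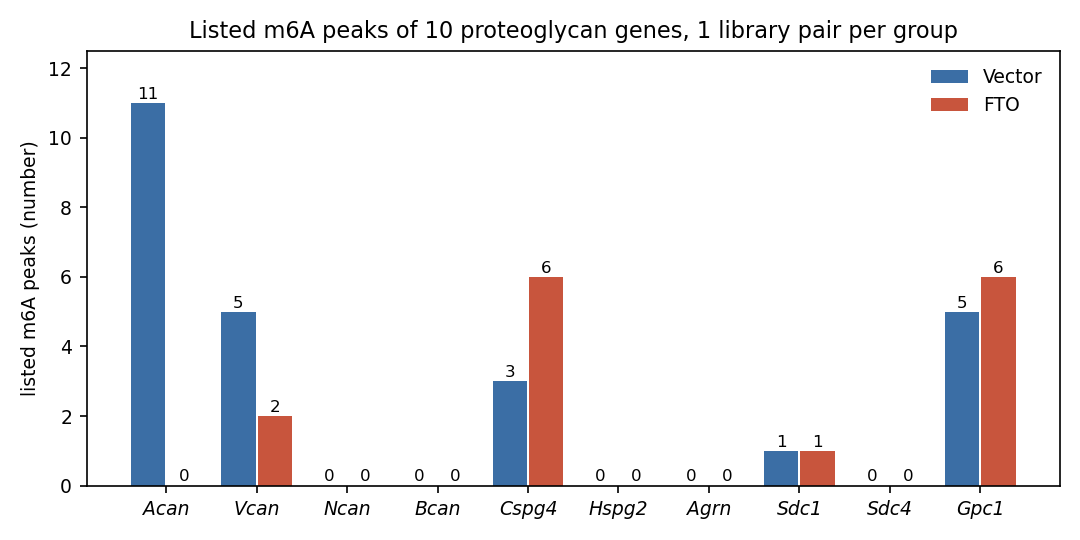
Number of listed m6A peaks (vertical axis) of the 10 proteoglycan genes (horizontal axis) in the Vector list and the FTO list, with 1 library pair per group and no error bars. Acan stands at 11 and 0 and Cspg4 at 3 and 6, and 5 genes are at 0 in both lists.

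Aggrecan, the lectican that gives cartilage its resistance to compression, had 11 listed peaks in Vector CFs and 0 in FTO CFs. All 11 were annotated to the same transcript and together covered 5485 bp. In the order of the transcript, from 5′ to 3′, the first 4 Vector peaks of Acan were 327, 77, 384 and 175 bp long. The next 4 were 128, 294, 204 and 3471 bp long. The last 3 were 159, 83 and 183 bp long. The peak of 3471 bp stood apart from the rest, the others being at most 384 bp, and it was longer than or as long as 99.1% of the Vector peaks. In the aggrecan gene, most of the chondroitin sulfate region is encoded by a single large exon, but which exon each peak covers was not determined here.

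That Acan had no FTO peak was known when the gene was chosen. A gene with Vector peaks and no FTO peak was found in 16.4% of all genes. Among the 1246 genes with at least 5 Vector peaks there were 23 such genes, or 1.85%, and among the 194 genes with at least 10 there was 1, Acan, or 0.515%. The other 31 genes with 11 Vector peaks had between 1 and 14 FTO peaks, with a median of 10. In the pair of peak numbers, measured as the straight-line distance over the 2 lists, the gene nearest to Acan was Irag1 with 11 Vector peaks and 1 FTO peak. Limch1 followed with 9 and 0, and then Cast with 10 and 2 and Col4a4 with 9 and 1 at the same distance.

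The names of the peaks carry running numbers, and these give a second view of Acan. The numbers follow the chromosomes, since the next named gene in the list lay further along the same chromosome in 94.98% of the 7409 steps between genes of the Vector list and in 94.97% of the 6844 steps of the FTO list, by the gene order of the GRCr8 assembly. They reach 59557 for Vector and 52060 for FTO, so 38308 and 34264 numbers are not in the lists. An unlisted number is read here as a call whose place is bounded by its listed neighbours, and why it is not listed is not given. In the Vector list, 16 numbers lie between the last peak of Aen and the first peak of Mfge8, the named genes on either side. Of these, 11 are Acan peaks and 5 are not listed. In the FTO list, 3 numbers lie between Isg20, the gene next to Acan, and Mfge8, and none of the 3 is listed. Where the numbers keep the gene order, unlisted calls could thus add at most 3 peaks to Acan in the FTO group. Isg20 itself had 0 Vector peaks and 1 FTO peak, Aen had 2 and 3, and Mfge8 had 2 and 1.

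**Figure D2:**
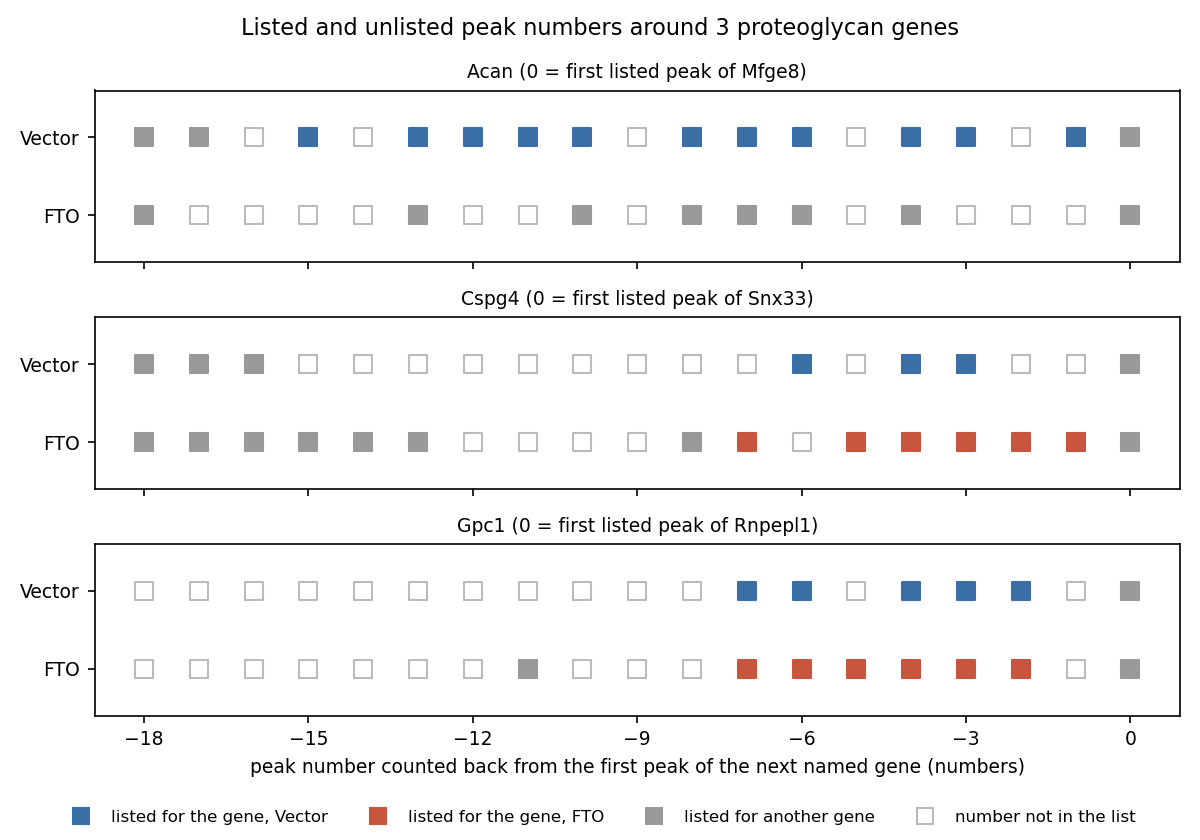
Peak numbers of the Vector list (upper row) and the FTO list (lower row), counted back from the first listed peak of the next named gene (horizontal axis, in numbers), around Acan, Cspg4 and Gpc1. Coloured squares are listed peaks of the gene, grey squares are listed peaks of other genes and open squares are unlisted numbers, with 11 Acan squares in the Vector row and 0 in the FTO row.

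Versican, the lectican of loose connective tissue, had 5 Vector peaks and 2 FTO peaks. From 5′ to 3′ the Vector peaks of Vcan were 294, 2898, 3141, 83 and 145 bp long. In the FTO list Vcan kept the neighbouring peaks of 3141 and 83 bp with the same lengths. The peaks of 294, 2898 and 145 bp were Vector peaks alone, and the covered length went from 6561 bp to 3224 bp. The peak of 145 bp was annotated to another Vcan transcript than the remaining ones. Versican is spliced into isoforms that differ in 2 large exons for chondroitin sulfate attachment, and it had 2 Vector peaks and 1 FTO peak over 1000 bp. The nearest named genes with peaks on either side of Vcan were Rasa1 and Zcchc9, which lie 7 and 8 protein-coding genes away. Between them 45 numbers of the Vector list and 47 of the FTO list are not listed. This stretch also holds other genes, and how many of the unlisted numbers fall in Vcan is unknown. Whether they include the 3 peaks that the FTO list lacks thus cannot be told.

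Acan and Vcan shared the lengths of 83 and 294 bp among their Vector peaks. A peak of 83 bp was listed for 51 of the 7894 genes with Vector peaks and a peak of 294 bp for 16, and both lengths together for 2, Acan and Vcan. In both genes the peak of 294 bp came on the 5′ side of the peaks over 1000 bp and the peak of 83 bp on their 3′ side. This likeness was noticed after the lengths were seen. In the FTO list the peak of 83 bp was kept in Vcan and the peak of 294 bp in neither gene. The brain lecticans Ncan and Bcan had no peak in either list. Between the named genes around them, at most 5 numbers of Ncan and 2 of Bcan are unlisted in either list.

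NG2, the transmembrane chondroitin sulfate proteoglycan, went the other way, with 3 Vector peaks and 6 FTO peaks. The Vector peaks of Cspg4 were 3549, 199 and 2861 bp long, from 5′ to 3′. In the FTO list the peaks of Cspg4 were 158, 164, 3549, 483, 199 and 2861 bp long, in the same direction. All 3 Vector peaks thus had an FTO peak of the same length and in the same order, and the peaks of 158, 164 and 483 bp were added to them. A number at least 2 times as high in the FTO list was found in 15.4% of all genes. That share includes the genes with FTO peaks and no Vector peak, unlike Cspg4. Because the added peaks were short beside the kept peaks of 3549 and 2861 bp, the covered length differed less, with 6609 bp and 7414 bp. Every Vector length together with more FTO peaks was found in 621 of the 6462 genes with peaks in both lists, or 9.61%, where more FTO peaks of any length were found in 15.7%. Exactly the same pair of numbers as Cspg4 was found in 6 other genes, among them the elastic fibre protein Eln and the basement membrane protein Nid2, named after their values were seen.

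One of the added Cspg4 peaks fell where the Vector list has an unlisted number. Between the peaks of 3549 and 199 bp, where the FTO list has the peak of 483 bp, the Vector list skips 1 number. The FTO list leaves 1 of 7 numbers unlisted between Cimap1c, the gene before Cspg4, and Snx33. Across all genes, 516 FTO peaks without a partner lay between neighbouring peaks that had one. For 390 of them, or 75.6%, the Vector list skipped a number at that place. In the other direction, the FTO list skipped a number for 961 of 1199 such Vector peaks, or 80.2%. Skipped numbers were common everywhere, since 35.7% of the Vector numbers and 34.2% of the FTO numbers were listed. The part of unlisted numbers in the higher FTO number of Cspg4 was not tested. Cspg4 also marks pericytes, and of 6 markers of pericytes and smooth muscle, 4 had a Vector peak and 5 an FTO peak, with 22 and 19 peaks in all. Most of these were peaks of Myh11, with 17 and 15. Rgs5 had 0 and 0, Abcc9 had 2 and 1, Kcnj8 had 0 and 1, Pdgfrb had 1 and 1, and Notch3 had 2 and 1. Their part was not tested either.

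The basement membrane proteoglycans perlecan and agrin had no listed peak under their gene IDs. Between Wnt4 and Ece1, the named genes with Vector peaks around Hspg2, the Vector list holds 8 peaks that carry no symbol, and between Cdc42 and Alpl the FTO list holds 6. They belong to the same 2 transcripts in both lists. One transcript has no gene ID and comes first, next to Cdc42, with 1 Vector peak of 156 bp and 4 FTO peaks of 156, 136, 192 and 128 bp. The other has a gene ID that the RefSeq table does not hold, with 7 Vector peaks and 2 FTO peaks. Hspg2 lies in this stretch together with other genes, and to which gene these transcripts belong was not determined. For Agrn, the numbers between its named neighbours hold no listed peak, and 9 Vector numbers and 4 FTO numbers there are unlisted.

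Among the cell surface members, Gpc1, a glypican held to the membrane by a lipid anchor, had 5 Vector peaks and 6 FTO peaks. In the order of the peak numbers the Vector peaks of Gpc1 were 385, 159, 166, 134 and 1830 bp long. The FTO list gave the same 5 lengths in the same order, with a peak of 392 bp between those of 159 and 166 bp. At that place the Vector list skips 1 number, so that both lists run through 6 numbers from the peak of 385 bp to that of 1830 bp. Syndecan-1 had 1 peak in each list, of 355 bp in both. Syndecan-4, which sits in focal adhesions, had no peak in either list, and 6 numbers between its neighbours Matn4 and Sys1 are unlisted in the Vector list.

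**Figure D3:**
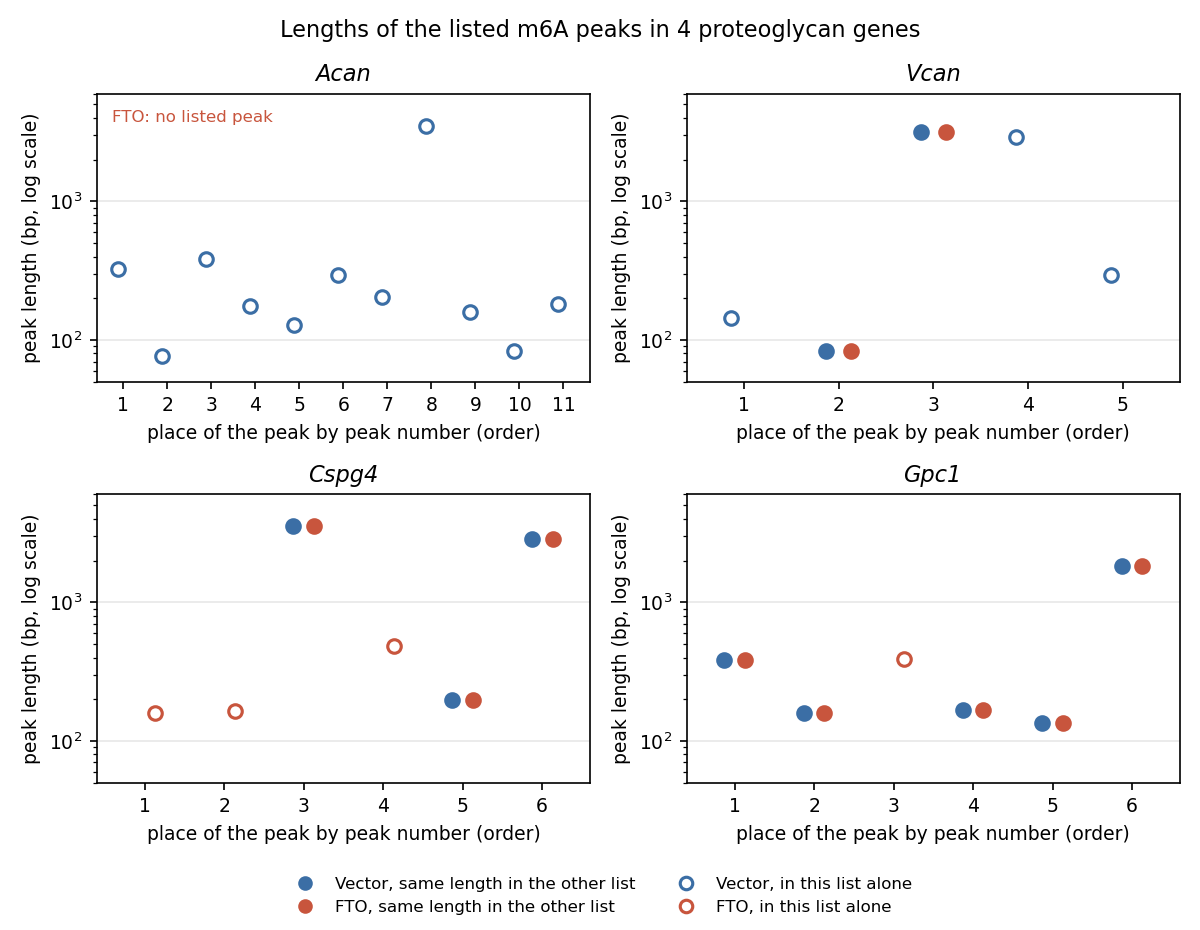
Length of each listed peak (vertical axis, bp on a log scale) in Acan, Vcan, Cspg4 and Gpc1, in the order of the peak numbers (horizontal axis), which runs from 3′ to 5′ in Vcan and from 5′ to 3′ in Acan and Cspg4. Filled circles are peaks with the same length in the other list and open circles are peaks in 1 list alone. The open circles are Vector peaks in Acan and Vcan, with 11 and 3, and FTO peaks in Cspg4 and Gpc1, with 3 and 1.

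All 14 Vector peaks without a partner were lectican peaks, 11 of Acan and 3 of Vcan, and the 4 FTO peaks without a partner were 3 of Cspg4 and 1 of Gpc1. These 4 were 26.7% of the 15 FTO peaks, against 31.6% of all FTO peaks. Peaks of at least 1000 bp made up 6 of the 25 Vector peaks, or 24.0%, and 4 of the 15 FTO peaks, or 26.7%, against 14.2% and 16.7% of all peaks. The median Vector length was 204 bp for these genes and 203 bp for all peaks. In the FTO list it was 355 bp against 228 bp. The 2 medians of these genes rest on different genes, since the FTO list holds no peak of Acan, whose Vector median was 183 bp. The long peaks of Cspg4, Gpc1 and 1 of the 2 of Vcan were kept at the same length, while the peaks of 3471 bp in Acan and 2898 bp in Vcan were in the Vector list alone.

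The enzymes that build and cut the sugar chains were followed through gene lists written by hand, again with earlier results of these data known. Of 16 enzymes of chondroitin and dermatan sulfate, 14 had a peak. Fewer FTO peaks were listed for 7 of the 14 and more for 0, against 41.4% and 21.2% of all genes, and the list had 32 Vector peaks and 25 FTO peaks. The polymerising enzyme Chsy3 had 4 and 3 peaks, Csgalnact2, which starts the chain, had 3 and 2, and the sulfotransferase Ust had 3 and 2. When peaks under 200 bp were left out, 6 had fewer FTO peaks and 1 had more, against 27.5% and 18.6% of all genes. After scaling by the ratio of the list sizes, 4 were lower past 1.5-fold and 0 higher, against 29.4% and 19.2% of all genes. Of 25 enzymes of heparan sulfate, 15 had a peak, with 48 Vector peaks and 52 FTO peaks in all. The FTO number was lower for 3 and higher for 5, against 41.4% and 21.2% of all genes. Without peaks under 200 bp it was lower for 2 and higher for 3, against 27.5% and 18.6%. The same scaling left 0 lower and 3 higher past 1.5-fold, against 29.4% and 19.2%. Ndst1, which sulfates the chain and thereby opens it to later enzymes, had 4 Vector peaks and 8 FTO peaks. Only its peaks of 495 and 913 bp had the same length in both lists. The sulfatase Sulf1 had 7 and 5 peaks, and Extl3 had 5 and 3. The difference between the chondroitin sulfate and the heparan sulfate enzymes was not tested. Of 7 enzymes of the linkage region, which joins both kinds of chain to the core protein, 6 had a peak. The FTO number was lower for 2 and higher for 1, against 41.4% and 21.2% of all genes. Without peaks under 200 bp it was lower for 1 and higher for 1, against 27.5% and 18.6%. After scaling, 2 were lower and 0 higher past 1.5-fold, against 29.4% and 19.2%. Pxylp1, a phosphatase of the linkage xylose, had 4 Vector peaks and 1 FTO peak, Xylt1, which adds the first xylose as Xylt2 also does, had 4 and 5, and B3galt6 had 2 and 1.

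Hyaluronan partners of the lecticans had few peaks. Of 14 genes that make, bind or break down hyaluronan, 5 had a peak, with fewer FTO peaks for 2 and more for 0, against 41.4% and 21.2% of all genes. The synthase Has2 had 2 Vector peaks of 1411 and 618 bp and 1 FTO peak of 2893 bp, so that its covered length was greater in the FTO list with fewer peaks. The hyaluronan receptor Hmmr had 2 and 0. The link proteins Hapln1 to Hapln4, which fasten lecticans to hyaluronan, had no peak in either list. The Adamts proteoglycanases are the enzymes that cut aggrecan and versican. Of 7 such genes 5 had a peak, and all 5 had more FTO peaks, against 21.2% of all genes, with 11 Vector peaks and 20 FTO peaks and a median difference of 2. Adamts8 had 5 and 8, Adamts15 had 2 and 4, and Adamts5, the main aggrecanase of mouse cartilage, had 2 and 4. When peaks under 200 bp were left out, 3 of the 5 had more FTO peaks, against 18.6% of all genes, and 2 as many. When those under 100 bp were left out, all 5 had more and 0 fewer, against 21.0% and 38.5% of all genes. These lists are small, the call rests on 1 library pair per group, and transcript levels were not used.

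**Figure D4:**
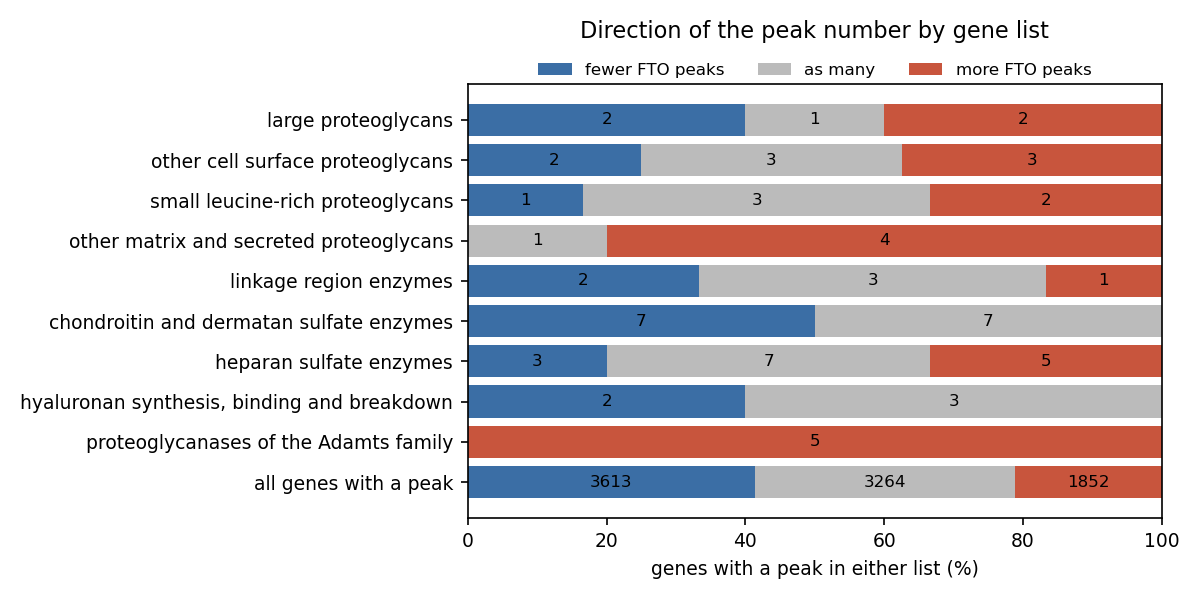
Share of those genes of a list that had any peak (horizontal axis, percent) that had fewer, as many or more FTO peaks than Vector peaks, for each gene list, with the number of genes printed in each bar. The Adamts proteoglycanases show 5 of 5 genes with more FTO peaks, and the chondroitin and dermatan sulfate enzymes 7 of 14 with fewer, beside 3613 of 8729 for all genes.

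Markers of chondrocytes, the cells best known for Acan, had few peaks. Of 4 chondrocyte markers, Sox9 had 1 Vector peak and 2 FTO peaks, and Col2a1, Comp and Matn1 had none. The 4 markers thus had 1 Vector peak and 2 FTO peaks in all, and Acan had 11 and 0. A missing peak does not show a missing transcript, as the fibroblast markers Col1a1, Col3a1 and Vim had none either. The part of chondrocytes in the Acan peaks was not tested.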

How the data were processed

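m6A-seq was performed on Vector and FTO CFs, with 1 m6A-IP and 1 input library each. Per the processing notes of the submitters, cutadapt 1.9.3, HISAT2 2.0.4 and the rn6 build were used. The peak caller's version, its threshold and the annotation are not given in the sources used here. Per group, the authors deposited 1 list, with a peak name of the prefix MACS, the peak length in bp (another unit, not normalized), a transcript and, for all but 248 Vector and 213 FTO peaks, a gene ID. Positions and enrichment were not used, so depth is unknown and no test across samples was made.

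Symbols, strand and gene order came from RefSeq tables of GRCr8, which matched 7489 of 7723 Vector and 6920 of 7145 FTO gene IDs. GRCr8 start positions were used for the gene order alone, and no peak was given GRCr8 coordinates. Genes without an ID were counted by transcript. Peaks were paired 1 to 1 by gene and equal length. The pairing was run on simulated lists in which changed peaks could not match a Vector length of the gene. That check shows only that kept peaks are paired, and it could not find false pairs of equal length. Neighbours were searched over up to 10 protein-coding genes on each side, and the Vector numbers before Cspg4 are not reported here. The members and lists were chosen with earlier results of these data known. Named were all members, the up to 3 genes of each other list with the largest difference of peak numbers (ties by Vector number, then symbol) and the genes nearest to Acan and Cspg4 in both numbers. Other genes were named after their values were seen. No transcript or protein sequence was used. Alternatives were minimum lengths of 100 and 200 bp, transcript assignment, summed length, scaling by list size with a call past 1.5-fold, and pairing within 10%, by transcript or by any peak of the gene. Leaving out Acan and counting the unnamed transcript as Hspg2 were added after the data were seen. Python 3.11.15, numpy 2.4.6, pandas 2.3.3, scipy 1.17.1 and matplotlib 3.10.9 were used.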

Additional observations from a re-analysis of the deposited data

How the results depend on the processing

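The totals of peak numbers turned on Acan. Without it there were 14 Vector peaks, the ratio of FTO to Vector peaks went from 0.6 to 1.07 and so changed direction, and 21.4% of the Vector peaks were without a partner. With a minimum length of 200 bp, 13 Vector and 8 FTO peaks were left, at a ratio of 0.615. After scaling by the ratio of the list sizes, 1.194, with a call past 1.5-fold, Acan and Vcan had fewer FTO peaks and 1 gene, Cspg4, had more, since Gpc1 did not pass 1.5-fold. By summed length the ratio was 0.648. Without Acan it was 0.868, with 16199 bp in the Vector list and 14059 bp in the FTO list, against 0.932 for all genes. The direction by summed length thus did not change without Acan. Counting the unnamed transcript as Hspg2 gave 26 Vector and 19 FTO peaks and 3 genes with more FTO peaks. The other transcript of that stretch, with 7 Vector peaks and 2 FTO peaks, goes the other way and was not counted as Hspg2. Among single genes with a number above 0, 7 of 27 values moved by over 1.5 times, all with a minimum length. Numbers of 0 could not rise with a minimum length, and they stayed at 0 with the transcript assignment. Counting the unnamed transcript did give peaks to Hspg2. No paired analysis was possible because the labels give 1 m6A-IP and input pair to either group, and for the same reason no replicate could be left out. Without read depth, how many peaks a list could hold is unknown.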

Other observations

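Other proteoglycans outside the large ones had peak numbers that differed little between the lists. Of 10 other cell surface proteoglycans, 8 had a peak, with fewer FTO peaks for 2 and more for 3, against 41.4% and 21.2% of all genes, and 14 Vector and 15 FTO peaks. Syndecan-3 (Sdc3) kept its 4 Vector lengths of 178, 118, 623 and 3633 bp in the FTO list, with a peak of 289 bp added. Gpc6 had 4 and 3 peaks, and the hyaluronan receptor Cd44 had 3 and 2. Of 16 small leucine-rich proteoglycans, which bind collagen fibrils, 6 had a peak, with fewer FTO peaks for 1 and more for 2, against the same shares of all genes. Lumican (Lum) had 1 Vector peak of 883 bp, which was listed again in the FTO list beside a peak of 311 bp. Osteomodulin (Omd) had 1 and 0 peaks and Ecm2 had 0 and 1. The abundant decorin (Dcn) and biglycan (Bgn) had no peak in either list.

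Of 13 other matrix and secreted proteoglycans, 5 had a peak, with more FTO peaks for 4 and fewer for 0, against 21.2% and 41.4% of all genes, and each of the 4 had 1 more peak. Col18a1 had 14 and 15 peaks, Col15a1 5 and 6, and Esm1 1 and 2. When peaks under 200 bp were left out, 0 of these genes had more FTO peaks, against 18.6% of all genes, and all 4 with a peak had as many.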
